A study of Ambystoma mexicanum with 7 samples.

Results

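The all-species Exiqon array used on axolotl limb tissue carried 70 probes for human miRNAs that are known from 2 gene clusters of placental mammals, among 2021 named probes. They were chosen by name alone: a probe was taken where a human name without an asterisk had a miRNA number of the primate cluster or of the imprinted cluster, whatever its signal. Of these probes, 35 belonged to the primate cluster, 34 to the imprinted cluster and 1, the miR-514 probe, to a family on the X chromosome that shares the number range. No probe of the set carried a fish, frog or chicken name, 41 were named for human or other primates alone, and 26 also carried a mouse or rat name. Because 8 of the probes carried several human names, a reading of one of those cannot be assigned to a single miRNA.

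A miRNA is a short RNA that pairs with messenger RNAs mainly through its seed, the bases 2 to 8 from its 5′ end, and lowers their translation or stability. The primate cluster encodes a large family of related miRNAs that in human are made chiefly in the placenta and in pluripotent stem cells. The imprinted cluster lies in the DLK1-DIO3 region of placental mammals, where its miRNAs are expressed from the maternal chromosome, many of them in brain and during development. An axolotl is a salamander, so these probes ask how much signal and how many differences between the tissues the array gave at names from outside its lineage.

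Each animal gave both samples. The blastema group held the mid-bud blastemas, the masses of growing cells on the amputated limb, that were taken 17 days after amputation from 3 white axolotls (animals 368, 369 and 378). The stump group held tissue of the hindlimbs of the same animals taken on day 0, at amputation, with full thickness skin, bone, muscle and nerve. Neither group carried a transgene or drug treatment, and total RNA was read. The 6 Exiqon arrays read each sample in Hy3 beside a pool of all samples in Hy5. Aliquots of the same RNA went to 3 LC Sciences arrays, 1 per animal with both of its tissues, where Cy5 marked the blastema of animals 369 and 378 and Cy3 that of animal 368.

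The sequences of 71 of the 76 human names on these probes were given with the LC Sciences probes. None was identical to any of 945 frog, fish and chicken miRNA sequences in the same file. In the best alignment without gaps they had 5 to 11 mismatches to the nearest of them, with a median of 9. Of 603 other human sequences, 105 were identical to a frog, fish or chicken sequence or lay wholly within one. Their mismatches to the nearest ran from 0 to 14, with a median of 8. The sequences below are human miRNAs of bright probes or of probes with clear differences, and close relatives of these. Each has its seed in capitals. The signals described next are readings of Exiqon probes named for these miRNAs. The bases of those probes, and of the RNA that they bound, were not analysed here.
miR-494: uGAAACAUacacgggaaaccuc
miR-370: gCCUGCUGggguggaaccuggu
miR-487b: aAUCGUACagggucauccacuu
miR-487a: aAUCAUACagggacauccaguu
miR-519d: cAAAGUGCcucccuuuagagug
miR-520g: aCAAAGUGcuucccuuuagagugu
miR-519e: aAGUGCCUccuuuuagaguguu
miR-524-3p: gAAGGCGCuucccuuuggagu
miR-525-3p: gAAGGCGCuucccuuuagagcg

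The 5′ arms of the primate cluster form a second group of lookalike sequences. They are shown because 4 of them share the letters GGGAAGC, which begin at the last base of the seed. All 4 lay on probes above the negative controls on every array, as did 16 of the 35 primate cluster probes in all. Seeds are again in capitals.
miR-518a-5p: cUGCAAAGggaagcccuuuc
miR-524-5p: cUACAAAGggaagcacuuucuc
miR-518d-5p: cUCUAGAGggaagcacuuucug
miR-526b: cUCUUGAGggaagcacuuucugu

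A seed was shared with a frog, fish or chicken miRNA by 191 of the 603 other human sequences, and by 9 of the 71 cluster sequences. 5 of these, miR-520a-3p, miR-520b, miR-520c-3p, miR-520d-3p and miR-520e, have the seed AAGUGCU of the miR-302 family and of zebrafish miR-430, the family that clears maternal messages from the early zebrafish embryo. miR-519d has the seed AAAGUGC of miR-17 and miR-20, which promote cell division in mammals. The zebrafish and human sequences are printed for comparison with miR-519d above.
dre-miR-430c: uAAGUGCUucucuuugggguag
hsa-miR-17: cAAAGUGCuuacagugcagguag

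Signal was read against the 7 negative control probes of the array, and the limit of an array was the mean Hy3 signal of the brightest of them. This limit was 116, 117 and 128 on the blastema arrays of animals 368, 369 and 378, against 124, 126 and 127 on their stump arrays. The 4 spots of a cluster probe agreed closely in Hy3 signal without background subtraction, with a median coefficient of variation of 3.11%, and no spot was saturated. Most of these probes read near the negative controls, so this value mainly describes the spread of spots at that level. The 2 arrays of animal 368 stood apart in quality, with 47 cluster spots flagged as poor on its blastema array and 47 on its stump array, against 1 to 5 on the other arrays. Tissue markers differed between the groups: 6 of 6 skeletal muscle probes were lower in blastema (−2.83 to −2.39 on the log2 scale, 5.43 to 26.8 times the limit), 3 of 3 cartilage probes were lower (−2.58 to −0.84), 1 of 2 blood probes was higher and 1 of 2 epidermis probes was lower. In whole tissue, fewer cells of a type and less RNA per cell cannot be told apart, and the part of the tissue makeup in the differences below was not tested.

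Most of the cluster probes read at the level of the negative controls. On the blastema arrays 31, 35 and 27 of the 70 probes exceeded the limit, against 29, 28 and 28 on the stump arrays. All 3 blastema arrays exceeded it for 26 probes and all 3 stump arrays for 24. On all 6 arrays 22 probes (31.4%) were above the limit, 32 (45.7%) were above it on none, and the other 16 were above it on some. The median cluster probe had 0.977 times the limit.

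Set against the rest of the array, this was a low level but not an empty one. Of all named probes 41.9% were above the limit on all 6 arrays, and of the 113 probes with both a human and a fish or frog name 86.7% were. The closest sets were those that have no place in an animal's own transcriptome: 37.2% of 406 probes named only for plant miRNAs and 36.7% of 139 named only for viruses passed on all 6 arrays. More than 2 times the limit was reached by 11.4% of the cluster probes, 8.13% of plant probes, 5.76% of virus probes, 53.1% of the probes shared with fish or frog and 14.3% of all named probes. The median ratio to the limit was 2.08 for the probes shared with fish or frog, 0.982 for plant probes, 0.995 for virus probes and 1.004 for all named probes. These shares describe probes that differ in sequence and base composition, and no test was run between the sets.

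The 2 clusters did not have the same share of bright probes, a difference given here without a test. Of the primate cluster 16 of 35 probes (45.7%) were above the limit on all 6 arrays, against 6 of 34 (17.6%) of the imprinted cluster. The primate median was 1.03 times the limit and the imprinted median 0.925. The single X-linked probe, miR-514, had 118, 119 and 122 in blastemas and 124, 123 and 125 in stumps, which is the level of the limit. Near the medians of their clusters stood miR-517a/miR-517b, at 113, 122 and 127 in blastemas and 134, 130 and 136 in stumps, and miR-431, at 107, 110 and 116 in blastemas and 113, 117 and 120 in stumps. miR-380, also near the imprinted median, had 108, 107 and 114 in blastemas and 123, 114 and 115 in stumps. Such values are what the typical probe of either cluster looked like.

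The better known members of the imprinted cluster were among these. miR-127-3p, which in the mouse is made antisense to the imprinted gene Rtl1 and lowers it, had 116, 118 and 122 in blastemas and 114, 123 and 124 in stumps. miR-134, which limits the growth of dendritic spines in rat neurons, had 120, 121 and 129 in blastemas and 120, 120 and 121 in stumps. Both sets of Hy3 values overlap and lie at the limit, which miR-134 exceeded on 3 blastema arrays and 0 stump arrays. The limit itself differed between these arrays, at 116, 117 and 128 for blastemas against 124, 126 and 127 for stumps. The log2 Hy3/Hy5 ratios of miR-134 did not overlap, like those of 35.7% of all tested probes. They were higher in blastema by 0.25 (limma, adjusted p = 0.14). The 32 probes that exceeded the limit on no array, 19 of them of the imprinted cluster and 13 of the primate cluster, had 0.729 to 0.962 times it, and the 16 that exceeded it on some arrays 0.938 to 1.08 times.

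The brightness was concentrated in few probes: 8 had more than 2 times the limit and 2 of these more than 10 times. miR-494, a member of the imprinted cluster, had a Hy3 signal of 5681, 9431 and 9819 in the blastemas of animals 368, 369 and 378, against 11252, 7647 and 6492 in their stumps. It was 68.2 times the limit and the 3rd brightest of all 2021 named probes. The arrays of animal 368 were its lowest among blastemas and its highest among stumps, and the groups overlapped. The probes next to it in rank were of different kinds. The one above it, that of the mouse muscle miRNA mmu-miR-1, had 293, 1916 and 2202 in blastemas and 22049, 12639 and 20255 in stumps, with no overlap. The one below it, that of the sorghum miRNA sbi-miR164c, had 5565, 7583 and 8835 in blastemas and 11236, 7959 and 7139 in stumps, which overlap in the same way as those of miR-494. Probes outside the set were chosen for mention after their values were seen.

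miR-519d was the brightest of the primate cluster, at rank 33 of all named probes and 12.5 times the limit. Its Hy3 signal was 803, 1135 and 1241 in blastemas, against 2583, 1583 and 1940 in stumps, so that every blastema lay under every stump. The miR-17 probe, whose target shares its seed, had the same order of arrays, with 647, 739 and 797 in blastemas and 1651, 1021 and 1254 in stumps. This order was not particular to that seed. The miR-19b probe, for a miRNA without it, had 1036, 1301 and 1391 in blastemas and 3481, 1976 and 2888 in stumps. These are signals before normalization. In log2 Hy3/Hy5 ratios after loess neither probe was called, at −0.077 for miR-17 (limma, adjusted p = 0.76) and −0.25 for miR-19b (adjusted p = 0.18). Next in brightness among the cluster probes was miR-512-5p, which shares no seed with a frog, fish or chicken sequence. It had 247, 298 and 335 in blastemas and 506, 353 and 347 in stumps.

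The remaining probes of the 10 brightest lay between 1.81 and 2.61 times the limit. From bright to dim they were miR-519e, miR-518a-5p/miR-527, miR-487b, miR-524-5p, miR-370, miR-526a/miR-520c-5p/miR-518d-5p and miR-516b, of which only miR-487b and miR-370 belong to the imprinted cluster. Among the other probes with several human names, miR-519c-5p/miR-519b-5p had 1.37 times the limit, miR-520f/miR-520c-3p 1.05, miR-517a/miR-517b and miR-520g/miR-520h 1.03 each, miR-516a-3p 1.01 and miR-520b/miR-520c-3p 0.893.

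Sharing a seed with an amphibian or fish miRNA did not go with one level. No reading is given here for miR-512-3p and miR-485-5p, which also share a seed with a frog or chicken miRNA. Of the probes with a name of the seed AAGUGCU, miR-520f/miR-520c-3p had 1.05 times the limit and miR-520d-3p 1.04. Those of miR-520a-3p, miR-520e and miR-520b/miR-520c-3p had 0.949, 0.939 and 0.893. The Exiqon probes of the human miRNAs with the same seed read alike, with 0.873 to 0.999 times the limit for miR-302a, miR-302b, miR-302c and miR-302d, 0.898 for miR-372 and 1.07 for miR-373. The human miRNAs with the seed of miR-519d covered a wide range, at 8.24 times the limit for miR-17, 5.37 for miR-106a, 3.17 for miR-93, 3.02 for miR-20a, 2.28 for miR-20b, 1.23 for miR-106b and 0.977 for miR-526b*.

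Some probes for nearly the same sequence gave very different readings. Positions are counted from 1 at the 5′ end of the first miRNA named, over the stretch that both share. miR-519d and miR-520g differ there by C9U, and the miR-519d probe had 12.5 times the limit against 0.869 for the miR-520g probe and 1.03 for the miR-520g/miR-520h probe. miR-519d and miR-519e differ by C13U, and both were bright, at 12.5 and 2.61 times the limit. The letters AGUGCCUCC were taken from the stretch that these 2 sequences share. They include the base at which miR-520g differs, so miR-520g was left out by that choice. On the given strand they occurred in these 2 sequences only, 0.105% of the 1902 sequences searched. This rarity was not tested against signal.

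Other close pairs were split in some cases and alike in another. miR-487b and miR-487a differ by G5A, U13A and C20G, and their probes had 2.16 and 0.859 times the limit. miR-524-3p and miR-525-3p share their whole seed and differ by G17A and U21C, and had 1.35 and 0.729. The pair miR-526b and miR-518d-5p, which differ by U5A, had 1.48 for the miR-526b probe and 1.82 for the miR-526a/miR-520c-5p/miR-518d-5p probe. These pairs were picked after their values were seen, and the sequences of the Exiqon probes themselves were not analysed here.

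The letters GGGAAGC, searched on the given strand, were found in 9 of the 1902 sequences (0.473%). The 4 cluster sequences named above lay on probes with 2.44 (miR-518a-5p/miR-527), 2.09 (miR-524-5p), 1.82 (miR-526a/miR-520c-5p/miR-518d-5p) and 1.48 (miR-526b) times the limit. Outside the rule, 3 asterisk sequences hold them too: the probes of miR-518c* and miR-518f* had 5.32 and 2.55 times the limit, and miR-518e* lay on the miR-519c-5p/miR-519b-5p probe, at 1.37. No reading is given here for miR-520d-5p and the chicken gga-miR-1762, which hold them too. Among 5′ arms of the primate cluster without the letters, the probes of miR-512-5p, miR-516b, miR-525-5p and miR-520a-5p had 2.82, 1.81, 1.34 and 1.04 times the limit. The probe of miR-519e*, an asterisk sequence without them, had 2.24. The sequence of miR-515-5p lacks them too, and no reading of it is given here. A shared stretch of letters is a description of these sequences and was not tested as a cause of the signal.

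Differences between blastema and stump were tested on log2 Hy3/Hy5 ratios, with limma fitted over 2008 probes and p-values adjusted over all of them. All 70 cluster probes passed the filter on local background. Of these, 6 were called higher in blastema and 2 lower at an adjusted p under 0.05, 11.4% in all. Over all tested probes 9.16% were called higher, 11.2% lower and 20.4% in either direction, a higher share than among the cluster probes. Among plant probes 13.8% were called, among virus probes 18.2% and among the probes shared with fish or frog 49.6%, 6 of them higher and 50 lower. These shares were not tested against each other.

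The differences of the set were mostly small, and at the median about as large as over the whole array. Without regard to sign, their median was 0.185 on the log2 scale, beside 0.177 over all probes tested. The 90th percentile was 0.43 for the set and 0.68 over all probes tested. The median difference of the 70 probes was 0.06 on the log2 scale, beside −0.00054 over all probes tested, with 43 above and 27 below 0. By animal the median was 0.02, −0.02 and 0.04 for animals 368, 369 and 378. The log2 ratios of the 2 groups did not overlap for 19 of the 70 probes, while 35.7% of all tested probes had such a separation. Of the 22 probes above the limit on all 6 arrays 6 were called, beside 38.2% of all tested probes at that level. Of the 16 above it on some arrays 2 were called, beside 15.9%, and of the 32 above it on none 0, beside 3.32%, with differences between −0.40 and 0.42.

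The clearest difference of the set was at miR-524-3p, of the primate cluster. Its Hy3 signal was 118, 135 and 137 in blastemas, just above the limit, against 251, 179 and 181 in stumps. No blastema reached a stump value, in Hy3 or in the log2 ratio. The log2 ratio fell by 1.06 (SE 0.11, adjusted p = 0.00025), with 3 of 3 animals lower, and the call held in every alternative setting run. miR-525-3p, with the same seed, had 89.5, 85.9 and 92.6 in blastemas and 90.7, 92.7 and 86.0 in stumps, all under the limit, and a difference of −0.21 (adjusted p = 0.54).

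miR-519e was the other probe called lower. It had 211, 264 and 282 in blastemas, against 465, 353 and 359 in stumps, again with no overlap. The log2 ratio fell by 0.54 (SE 0.11, adjusted p = 0.0080) in blastema. It was lower in 3 of 3 animals and kept its call under every normalization, and the difference was about as large without animal 369 (−0.55, adjusted p = 0.065) and without animal 378 (−0.53, adjusted p = 0.081), where the call was lost.

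Of the probes called higher, all but miR-495 and miR-518e depended far more on how the log2 ratios were scaled. The array also held 10 spike-in controls, probes for synthetic RNAs that do not come from the tissue. After loess their differences lay between −0.08 and 1.48 and tended to be larger for brighter controls, and the 4 of them brighter than 1000 had 1.03 to 1.48. With median centring in place of loess the same controls lay between 0.000078 and 0.31. Over the whole array 184 probes were higher and 225 lower after loess, 55 higher and 263 lower after median centring, and 26 higher and 259 lower with loess fitted to the spike-in spots.

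miR-494 was called higher after loess, by 0.81 (SE 0.20, adjusted p = 0.020). Its log2 ratios were 0.13, 0.84 and 0.76 in blastemas, against −0.27, 0.06 and −0.47 in stumps, and 3 of 3 animals were positive. With median centring the difference was −0.54 (adjusted p = 0.23) and with the spike-in loess −0.74 (adjusted p = 0.21), so its direction is not settled. Without animal 378 it was 0.59 (adjusted p = 0.24) after loess. Of its neighbours in brightness after loess, mmu-miR-1 differed by −3.01 (adjusted p = 0.0069) and sbi-miR164c by 0.80 (adjusted p = 0.0041).

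miR-370 had a Hy3 signal of 230, 264 and 318 in blastemas, against 273, 211 and 206 in stumps, which overlap through animal 368. Its log2 ratio was higher by 0.58 (SE 0.11, adjusted p = 0.0038) after loess, in 3 of 3 animals. It was 0.18 (adjusted p = 0.52) with median centring and 0.02 (adjusted p = 0.97) with the spike-in loess, and after loess without animal 378 it was 0.54 (adjusted p = 0.060).

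The probe of miR-519c-5p/miR-519b-5p had 153, 167 and 211 in blastemas, against 179, 153 and 147 in stumps, and a difference of 0.48 (SE 0.12, adjusted p = 0.018). miR-525-5p had 154, 161 and 201 in blastemas, against 169, 154 and 150 in stumps, and a difference of 0.40 (SE 0.11, adjusted p = 0.030). For both, the Hy3 values of the groups overlapped, and neither call held with the animal as a block (adjusted p = 0.050 and 0.073 in that order) or with either other normalization (adjusted p = 0.61 to 0.91).

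The last 2 calls stood on probes at the level of the negative controls. miR-495 had 117, 121 and 126 in blastemas, against 112, 117 and 127 in stumps, and miR-518e had 118, 126 and 124 in blastemas, against 118, 119 and 126 in stumps. These values overlap almost fully. The log2 ratios were nonetheless apart after background correction, by 0.58 (SE 0.13, adjusted p = 0.010) for miR-495 and by 0.52 (SE 0.13, adjusted p = 0.020) for miR-518e. Hy3 alone was background corrected and quantile normalized, which gives all arrays the same distribution of signals. From it the differences were 0.13 (adjusted p = 0.45) and 0.12 (adjusted p = 0.42). Without background correction of the log2 ratios they were 0.14 (adjusted p = 0.075) and 0.10 (adjusted p = 0.36). With median centring they were 0.68 (adjusted p = 0.0040) and 0.61 (adjusted p = 0.019), and with the spike-in loess 0.60 (adjusted p = 0.020) and 0.53 (adjusted p = 0.076). miR-518e was above the limit on 2 blastema arrays and on no stump array, so in stumps its level is known only to lie under the limit, and no fold is given.

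With animal 369 or 378 left out, fewer cluster probes were called, and with any animal left out fewer probes over the whole array. Without animal 378, 0 cluster probes were called higher and 1 lower, and 82 higher and 106 lower over the array. The differences of the 6 probes called higher were then 0.59 for miR-494, 0.54 for miR-370, 0.34 for miR-519c-5p/miR-519b-5p, 0.33 for miR-525-5p, 0.54 for miR-495 and 0.49 for miR-518e, with adjusted p of 0.060 to 0.24. Without animal 369 the calls of miR-370 and miR-494 held, beside 105 higher over the array, and without animal 368 all but that of miR-525-5p did (0.38, adjusted p = 0.099), beside 177 higher. The cluster counts without animal 368 stayed at 6 higher and 2 lower, so a probe not called with all animals was called higher there. Leaving out 1 array called 2 cluster probes higher without the blastema of animal 378 (124 over the array), 2 without its stump (136), 3 without the blastema of animal 369 (152), 4 without the stump of animal 368 (165) and 6 without either other array (172 and 147).

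Under median centring and the spike-in loess, bright probes that had not been called joined the lower side. miR-519d differed by −0.22 (SE 0.12, adjusted p = 0.28) after loess, by −1.16 (adjusted p = 0.0013) with median centring and by −1.41 (adjusted p = 0.0029) with the spike-in loess. Hy3 alone after quantile normalization gave 0.08 (adjusted p = 0.72), although before normalization every blastema signal lay under every stump signal. After loess, with median centring and with the spike-in loess, miR-512-5p gave −0.29, −0.71 and −1.01 in that order. miR-487b gave −0.34, −0.70 and −0.99. For both, the adjusted p was over 0.05 after loess only. In all, median centring called 2 cluster probes higher and 5 lower, and the spike-in loess 1 higher and 5 lower.

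On the LC Sciences arrays, which read aliquots of the same RNA with other probes, the clusters were at background. Of 1974 probes 83 carried a human name of the rule, and they covered 71 of the 76 human names on the Exiqon probes. Only 2 of their 498 normalized signals reached 32, the floor under which signals were not ranked, and the highest was 36. The median of these signals was 11, beside 15 over all probes. Signals before normalization were taken on the array of animal 368, for the 142 spots of the 71 names also on Exiqon. These spots read 279 to 372 in the blastema channel and 38.6 to 49.9 in the stump channel. The medians of all spots, 324.7 and 45.4, lay within these ranges.

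The probes that were bright on Exiqon were not bright here. miR-494 had 9, 36 and 22 in blastemas and 16, 25 and 9 in stumps. miR-519d had 14, 6 and 6 in blastemas and 11, 13 and 15 in stumps, while miR-17, with the same seed, had 629, 349 and 234 in blastemas and 126, 88 and 94 in stumps. Every blastema signal of miR-17 thus lay above every stump signal here, the reverse of its Hy3 signals on Exiqon. miR-524-3p had 20, 5 and 4 in blastemas and 16, 5 and 14 in stumps, and miR-519e 23, 4 and 4 in blastemas and 7, 9 and 17 in stumps. Every value of these 2 probes was under the floor of 32, so the 2 lower calls on Exiqon had no reading above it here.

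No probe of the clusters reached 32 in all samples of a tissue, so none entered the LC Sciences test, in which limma called 48.2% of 500 probes. Entering all 1974 probes adds no test of them, since at the floor nearly all of their values are equal in both tissues. A difference at these names was not detectable at this signal.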

How the data were processed

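Exiqon scanner files, as deposited, hold the Hy3 and Hy5 intensity of each spot before any correction. The deposited log median ratios are log2 Hy3/Hy5 after the authors' background correction and Lowess. The deposited LC Sciences signals are intensity normalized by the company, and whether by Lowess or globally is not settled here. Columns of the authors' own comparisons were not used.

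Ratios were made again with limma 3.58.1 in R 4.3.3 (normexp, offset 10, loess, no weight for control spots). Flagged spots were dropped and the spots of a probe averaged. Named probes were kept with at least 50% of spots over local background by 2 SD on all 3 arrays of a group, and 206 unnamed IDs left out. For 13 cluster probes with a deposited ratio, the median absolute difference from it was 0.011 over 66 values. Groups were compared unpaired with lmFit, eBayes and Benjamini-Hochberg adjustment (threshold 0.05). The same animals gave both groups, so replicate numbers pair the samples, and deviations of the same animal correlated at −0.03 to −0.01 over 2002 probes. LC Sciences signals were floored at 32 and tested where all 3 samples of a group reached it. Alternatives covered normalization, background, channel, filters, test, block and left-out replicates.

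Named are called probes (up to 12 per direction), the 10 brightest, those with several human names and the 2 nearest each cluster's median; others were picked after their values were seen. The members and lists were chosen with earlier results of these data known. In simulated data, 92% of changes of 1 and 52% of changes of 0.5 (log2) were recovered among 2008 probes. The number of arrays limits the precision.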

Additional observations from a re-analysis of the deposited data

How the results depend on the processing

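The counts of cluster probes above the limit stayed within 1.5 times under each alternative limit, background, flag and summary setting. Calls did not. Against 6 higher and 2 lower, median centring gave 2 and 5, beside 55 and 263 over the whole array. The spike-in loess gave 1 and 5, beside 26 and 259. The methods' t-test at the study's threshold gave 1 and 1, beside 51 and 36. The lower count was 4 without background correction, beside 228 of 2008 probes over the array. It was also 4 with the deposited ratios (12 cluster probes), beside 169 of 453 probes. With only probes above every negative control (28 cluster probes) it was 4, beside 230 of 972. With arrays or animals left out, 0 to 6 were called higher and 1 to 2 lower, 0 and 1 of them without animal 378, where calls over the whole array also fell, to 82 higher and 106 lower against 184 and 225. The animal as a replicate block gave 4 and 2, beside 149 and 187 over the whole array. The median difference, 0.06, was 0.10 with median centring and 0.012 to 0.062 with arrays or animals left out. The cause of these moves was not tested.

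Signs turned as follows among 23 named probes. Median centring gave −0.54 for miR-494, 0.088 for miR-514, −0.080 for miR-516b, −0.31 for miR-518a-5p/miR-527, −0.29 for miR-524-5p and −0.021 for miR-526a/miR-520c-5p/miR-518d-5p, and the spike-in loess −0.74, 0.072, −0.24, −0.60, −0.52 and −0.19 in that order. Hy3 alone after quantile normalization gave 0.081 for miR-519d and −0.015 for miR-520b/miR-520c-3p. With flagged spots kept, miR-431 was 0.11, miR-514 0.044 and miR-520b/miR-520c-3p −0.048. With arrays or animals left out, miR-520b/miR-520c-3p ran between −0.15 and 0.27, miR-516a-3p between −0.11 and 0.35, miR-524-5p between −0.013 and 0.072 and miR-514 between −0.21 and 0.10.

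On LC Sciences the cluster probes had no usable test in any setting, since only 2 of their 498 signals reached the floor. Of the calls on that array 53.5% were higher, and 0.458% after centring on spike-in probes. Signals near the negative controls, and 3 animals, limit what can be seen.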

Other observations

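Of 9 Exiqon probes whose human names carry an asterisk and a cluster number, outside the rule, 3 were clearly above the limit: miR-518c* at 5.32 times, miR-518f* at 2.55 and miR-519e* at 2.24. The other 6 had 0.819 to 1.01. miR-518c* had a Hy3 signal of 562, 664 and 982 in blastemas, against 784, 474 and 458 in stumps, and a difference of 0.95 (limma, adjusted p = 0.00090) after loess. On LC Sciences it had 19, 8 and 10 in blastemas and 9, 10 and 4 in stumps.

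miR-668, whose number was not in the rule, was the 7th brightest named Exiqon probe, with 4688, 7196 and 7445 in blastemas and 9721, 6907 and 6595 in stumps. On LC Sciences it had 23, 21 and 14 in blastemas and 14, 1 and 13 in stumps.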
